A study of Mus musculus with 9 samples.

Results

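The genes described here are 42 genes of glycolysis, glucose and lactate transport and the response to low oxygen. They were chosen by symbol, with earlier results of these data known, and Car12 is among the genes that the study itself reported. They were measured in HC11 mammary epithelial cell strains that carry variants of the transcriptional co-activator Mkl1. A gene was read from a probeset annotated to that symbol alone, and where several such probesets existed, from the one with the highest mean over all 9 arrays. This gave 39 of the 42 genes, out of 19937 genes measured in the same way. Of the 39, 36 had a mean log2 expression of at least 4, the minimum of the study's filters, and Slc2a3, Egln3 and Adm lay under it. Gpi1 and Eno1 had no probeset under their symbols, and Gapdh was listed only on 11 probesets together with other genes.

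HC11 cells are mouse mammary epithelial cells that were derived from BALB/c mice in mid-pregnancy. Each strain overexpressed Mkl1 with red fluorescent protein (RFP) fused to its C-terminus, after stable transfection, geneticin selection and sorting for RFP. HC11-ΔSAP cells carried Mkl1 without the SAP domain, a potential DNA-binding domain. HC11-mutB1 cells carried Mkl1 with a mutated B1 site, through which Mkl1 interacts with serum response factor (SRF). HC11-FL cells carried full length Mkl1 and served as the control. Endogenous Mkl1 was present in all of them. Triplicate cultures per strain were held for 48 h in RPMI medium with 0.03% FCS and no EGF, with no low-oxygen treatment stated, and gave 3 arrays each. With a single sorted strain for each construct, the effect of the construct and that of the strain cannot be told apart, and p-values measure the spread between cultures of a strain. Arrays of cells with an empty vector were not analysed here.

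Glycolysis converts glucose to pyruvate, and lactate dehydrogenase reduces pyruvate to lactate. Hypoxia-inducible factors (HIF) are pairs of an oxygen-labile α subunit, such as the products of Hif1a and Epas1, and a stable partner. With oxygen present, prolyl hydroxylases of the Egln family mark the α subunit for degradation, and in its absence the factor binds short core motifs near genes for glucose uptake, most glycolytic enzymes, mitochondrial turnover and pH control. Because the α subunits are controlled at the protein level, their mRNA is not a measure of HIF activity.

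As members of the list are known HIF targets, the promoters of 6 of them are shown, the 4 that passed all filters against HC11-FL in both mutant strains (Bnip3, Ak4, Pfkl and Eno3), Ldha as the promoter with 5 ACGTG matches, and Car12, which moved in opposite directions in the mutant strains. Each is the 250 bases before the most upstream start in the RefSeq promoter table (build GRCm38.p6), 5′ to 3′ on the strand of the gene, with capitals for the HIF core motifs ACGTG and GCGTG on either strand, so that CACGT and CACGC are matches on the reverse strand. Bnip3 lies at chr7:138909507-138909756, minus strand. Ldha lies at chr7:46845554-46845803, plus strand, and Ak4 at chr4:101419039-101419288, plus strand. Pfkl lies at chr10:78009808-78010057, minus strand, Eno3 at chr11:70656926-70657175, plus strand, and Car12 at chr9:66713436-66713685, plus strand.
Bnip3: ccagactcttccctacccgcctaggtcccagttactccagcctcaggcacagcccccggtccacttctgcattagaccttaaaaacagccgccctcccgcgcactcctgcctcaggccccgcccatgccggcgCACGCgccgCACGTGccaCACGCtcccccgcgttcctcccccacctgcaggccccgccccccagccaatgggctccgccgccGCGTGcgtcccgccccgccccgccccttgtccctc
Ldha: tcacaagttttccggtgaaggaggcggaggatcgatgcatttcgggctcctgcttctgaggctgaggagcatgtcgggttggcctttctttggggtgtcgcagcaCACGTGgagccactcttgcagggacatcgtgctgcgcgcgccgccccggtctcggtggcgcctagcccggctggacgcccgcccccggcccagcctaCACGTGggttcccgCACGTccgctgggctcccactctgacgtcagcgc
Ak4: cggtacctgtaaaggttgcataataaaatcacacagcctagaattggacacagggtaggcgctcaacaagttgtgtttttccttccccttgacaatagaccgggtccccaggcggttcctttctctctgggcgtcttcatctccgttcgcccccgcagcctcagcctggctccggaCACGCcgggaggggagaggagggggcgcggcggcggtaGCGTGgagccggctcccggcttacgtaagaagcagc
Pfkl: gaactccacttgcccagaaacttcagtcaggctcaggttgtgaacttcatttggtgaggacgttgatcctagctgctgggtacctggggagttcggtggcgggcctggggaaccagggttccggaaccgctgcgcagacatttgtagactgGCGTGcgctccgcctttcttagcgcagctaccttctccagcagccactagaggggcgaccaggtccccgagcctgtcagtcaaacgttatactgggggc
Eno3: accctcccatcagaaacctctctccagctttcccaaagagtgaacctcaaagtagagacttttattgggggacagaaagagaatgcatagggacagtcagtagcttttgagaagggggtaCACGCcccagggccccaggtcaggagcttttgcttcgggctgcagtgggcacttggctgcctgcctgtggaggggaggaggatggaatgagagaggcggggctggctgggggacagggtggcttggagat
Car12: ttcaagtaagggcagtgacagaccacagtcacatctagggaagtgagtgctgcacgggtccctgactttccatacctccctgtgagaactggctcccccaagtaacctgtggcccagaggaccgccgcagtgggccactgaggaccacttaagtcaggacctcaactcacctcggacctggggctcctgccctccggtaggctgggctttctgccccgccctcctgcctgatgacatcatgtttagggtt

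The Bnip3 window held 2 ACGTG matches, the opposite strands of a single CACGTG, and 3 GCGTG matches. Of the 5 ACGTG matches of Ldha, 4 were the opposite strands of 2 CACGTG. The windows of Ak4, Pfkl and Eno3 held 2, 1 and 1 GCGTG matches and no ACGTG, and the Car12 window held neither motif. Promoters in the table were found for 35 of the 39 genes, and 15 of these (42.9%) held ACGTG, against 16.5% of 27025 promoters of all genes and 17.6% of 17491 promoters of protein-coding genes. GCGTG occurred in 16 of the 35 (45.7%), against 28.3% of all promoters and 33.7% of those of protein-coding genes. The windows of the listed genes were also richer in G and C, with a median of 60.0% against 52.0% for all promoters and 55.2% for those of protein-coding genes. The CArG box, the motif bound by SRF, was found in 0 of the 35 windows and in 1.41% of all promoters. At the adjusted p, 10 of the 15 genes with ACGTG and 14 of the 20 without it fell in HC11-ΔSAP against HC11-FL, and 9 of the 15 and 12 of the 20 fell in HC11-mutB1. The shares with and without the motif were not tested against each other.

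All arrays were close to each other, with correlations of 0.994 to 0.995 within a strain and 0.985 to 0.989 between strains. All 6 epithelial markers were above the expression minimum, and 0 of 4 endothelial markers were. Of the fibroblast markers 5 of 6 were above it, Dpt being the exception, and of the leukocyte markers 3 of 5, with the defining gene Ptprc under it (3.54 ± 0.04 in HC11-ΔSAP, 3.39 ± 0.17 in HC11-mutB1 and 3.55 ± 0.05 in HC11-FL; log2, SD, n = 3 each). Some of these markers differed between strains: 4 epithelial markers fell and 2 rose in HC11-ΔSAP, and 2 fell and 3 rose in HC11-mutB1, with log2 fold changes of -1.90 and 1.15 for Krt5 and of -1.36 and -0.65 for Krt18. Of the fibroblast markers 2 fell in HC11-ΔSAP, and 1 fell and 1 rose in HC11-mutB1. In that order of strains, the log2 fold changes were -0.38 and -0.87 for Pdgfrb and -0.42 and 0.51 for Pdgfra. The leukocyte marker Cd68, which read 7.30 to 8.17 over all arrays, rose by 0.45 in HC11-ΔSAP and fell by 0.34 in HC11-mutB1. The part of these marker differences in the results was not tested. The probeset of Mkl1, which does not separate construct from endogenous transcript, read 9.55, 9.47 and 9.41 in HC11-ΔSAP, 9.89, 9.83 and 9.76 in HC11-mutB1, and 10.08, 9.86 and 9.92 in HC11-FL. HC11-ΔSAP was lower than HC11-FL by 0.48 in the log2 mean (limma adjusted p = 0.0018; exact permutation p = 0.1, two-sided, the smallest that 3 against 3 arrays allow). Of the proliferation markers, 4 of 4 measured fell in HC11-ΔSAP and 3 of 4 rose in HC11-mutB1, each against HC11-FL. The mean log2 value of these markers per array was 6.55 to 6.79 in HC11-ΔSAP, 8.72 to 8.81 in HC11-mutB1 and 8.32 to 8.33 in HC11-FL. Its part in the differences below was not tested. In these bulk cultures, fewer cells expressing a gene and less of its RNA per cell cannot be told apart.

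In HC11-ΔSAP cells, most of the 39 listed genes fell. As the list was chosen with earlier results known, shares over all genes stand beside its counts as description, here and below. At an adjusted p of at most 0.01 (limma, Benjamini-Hochberg over all probesets) 26 of 39 fell and 1, Eno2, rose, where 8.09% of all genes were lower and 10.8% higher, or 12.0% and 16.0% of genes above the expression minimum. The median log2 fold change of the 39 genes was -0.55. It was -0.56 for the 36 above the minimum, against 0.00 for all genes above it. With the study's further demand of a 2-fold difference, 7 fell (Car12, Bnip3, Ak4, Pfkl, Pdk1, Eno3 and Higd1a) and Eno2 rose, against 2.07% and 2.06% of genes above the minimum. Most of the differences were thus smaller than 2-fold. For 29 of the 39 genes the HC11-ΔSAP and HC11-FL arrays did not overlap. That held for 37.8% of all genes, those under the expression minimum included.

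In HC11-mutB1 cells, 24 of 39 fell against HC11-FL and 2, Car12 and Vegfa, rose at the adjusted p, where 7.21% of all genes were lower and 10.5% higher, or 10.6% and 15.7% of those above the minimum. The median log2 fold change of the 39 genes was -0.37. It was -0.45 for the 36 above the minimum, against -0.01 for all genes above it. With the 2-fold demand 5 fell (Eno3, Ak4, Bnip3, Epas1 and Pfkl) and 0 rose, against 1.67% and 2.21% of genes above the minimum. Car12 (log2 0.62) and Vegfa (log2 0.40) rose by less than 2-fold. The arrays of the strains did not overlap for 32 of the 39 genes, against 39.5% of all genes, those under the minimum included. Both comparisons share the 3 HC11-FL arrays, so a property of those cultures would enter both, and below each gene's value in either strain stands beside the other.

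**Figure D1:**
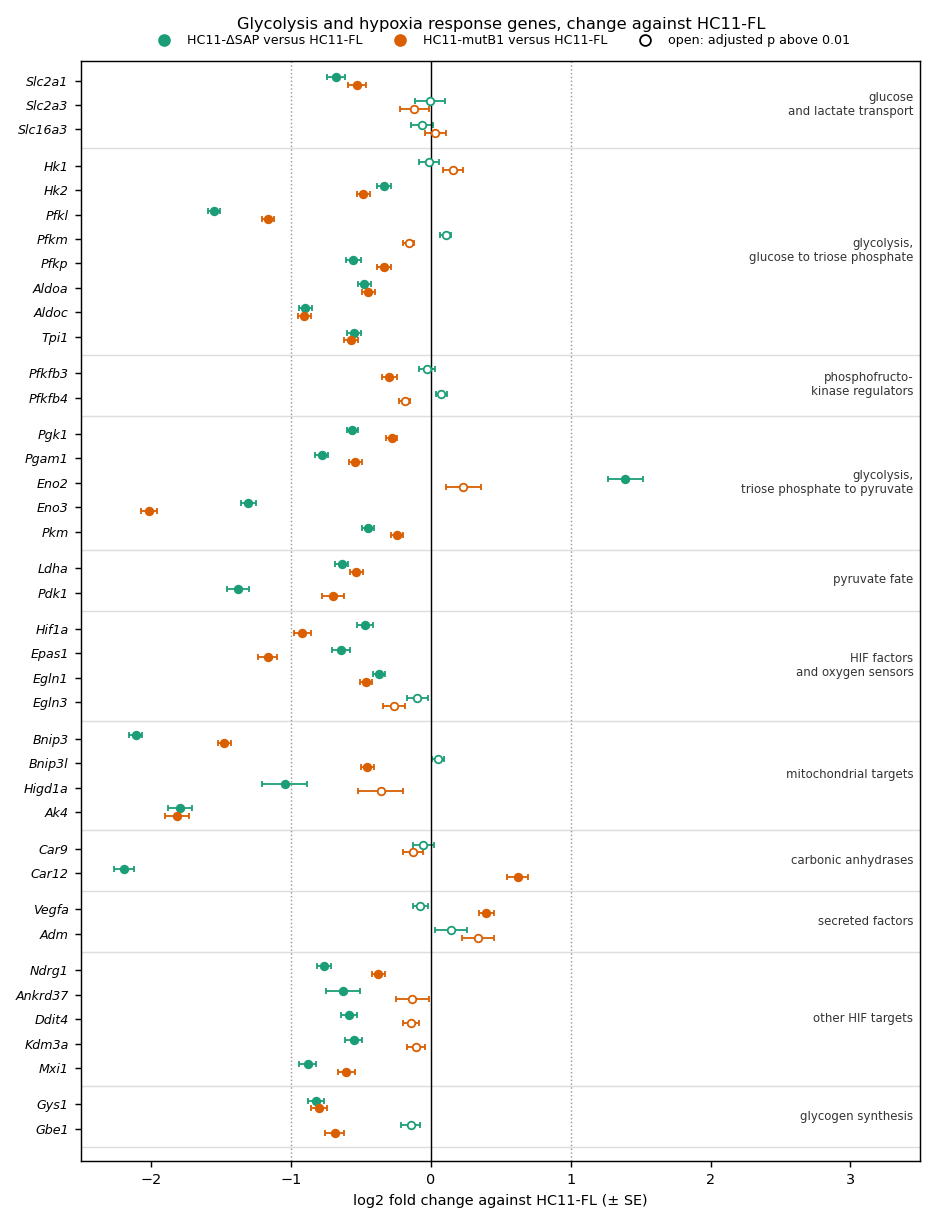
Log2 fold change against HC11-FL for the 39 measured genes, grouped by role, with HC11-ΔSAP in green and HC11-mutB1 in orange. Points are the difference of the means of 3 arrays per strain and bars are limma SEs; filled points passed an adjusted p of 0.01 and dotted lines mark a 2-fold difference. Most filled points lie left of zero, from -2.19 (Car12 in HC11-ΔSAP) upwards, with Eno2 at 1.39 in HC11-ΔSAP and Car12 at 0.62 in HC11-mutB1 to the right.

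Of the 3 transporters of glucose and lactate, 1 fell, in both mutant strains. Slc2a1, the widespread glucose transporter Glut1, read 9.92, 10.03 and 10.03 in HC11-ΔSAP, 10.15, 10.16 and 10.11 in HC11-mutB1, and 10.75, 10.54 and 10.72 in HC11-FL (log2). Every mutant array lay under every HC11-FL array. The log2 fold change was -0.68 ± 0.06 (SE, adjusted p = 0.00017) in HC11-ΔSAP and -0.53 ± 0.06 (adjusted p = 0.0007) in HC11-mutB1. Slc2a3, the transporter Glut3, was under the expression minimum in the mean, and the lactate exporter Slc16a3 was near it at 4.57 to 4.91 in all arrays. Neither passed the test, with log2 fold changes of -0.01 and -0.06 in HC11-ΔSAP and -0.12 and 0.03 in HC11-mutB1.

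The first steps of glycolysis were mostly lower in both mutant strains, with 6 of 8 measured enzymes down in each. Hexokinase 2 (Hk2), which traps glucose by phosphorylation, read 9.29, 9.26 and 9.28 in HC11-ΔSAP, 9.10, 9.14 and 9.14 in HC11-mutB1, and 9.63, 9.52 and 9.67 in HC11-FL. The 3 strains did not overlap. Its log2 fold change was -0.33 ± 0.05 (adjusted p = 0.0015) in HC11-ΔSAP and -0.48 ± 0.05 (adjusted p = 0.00022) in HC11-mutB1. Hk1 did not pass the test on its probeset (-0.01 and 0.16), which is annotated by a single accession also found on 15 probesets shared with another gene, nor on its other probeset, which lists Hk1 RefSeq transcripts (-0.10 and -0.17).

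Of the 3 isozymes of phosphofructokinase, the committed step of glycolysis, 2 fell in both mutant strains. Pfkl, the liver type, read 8.66, 8.61 and 8.73 in HC11-ΔSAP, 9.06, 9.06 and 9.05 in HC11-mutB1, and 10.22, 10.19 and 10.24 in HC11-FL. This is a 2.93-fold lower level in HC11-ΔSAP (log2 -1.55 ± 0.04, adjusted p = 3.4e-07) and a 2.24-fold lower level in HC11-mutB1 (log2 -1.16 ± 0.04, adjusted p = 1.2e-06). The platelet type Pfkp fell by 0.55 in HC11-ΔSAP and 0.34 in HC11-mutB1 on the log2 scale. The muscle type Pfkm did not pass the test against HC11-FL, with log2 fold changes of 0.11 (adjusted p = 0.11) in HC11-ΔSAP and -0.16 (adjusted p = 0.025) in HC11-mutB1. Of the bifunctional enzymes that make and break the activator of phosphofructokinase, Pfkfb3 fell in HC11-mutB1 (-0.30 ± 0.06, adjusted p = 0.0066) and did not pass in HC11-ΔSAP (-0.03), and Pfkfb4 passed in neither (0.07 in HC11-ΔSAP and -0.19 in HC11-mutB1). The aldolases Aldoa and Aldoc, which split the hexose bisphosphate, and triose phosphate isomerase (Tpi1) all fell in both strains. Aldoc had the largest change of these, -0.90 in each.

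**Figure D2:**
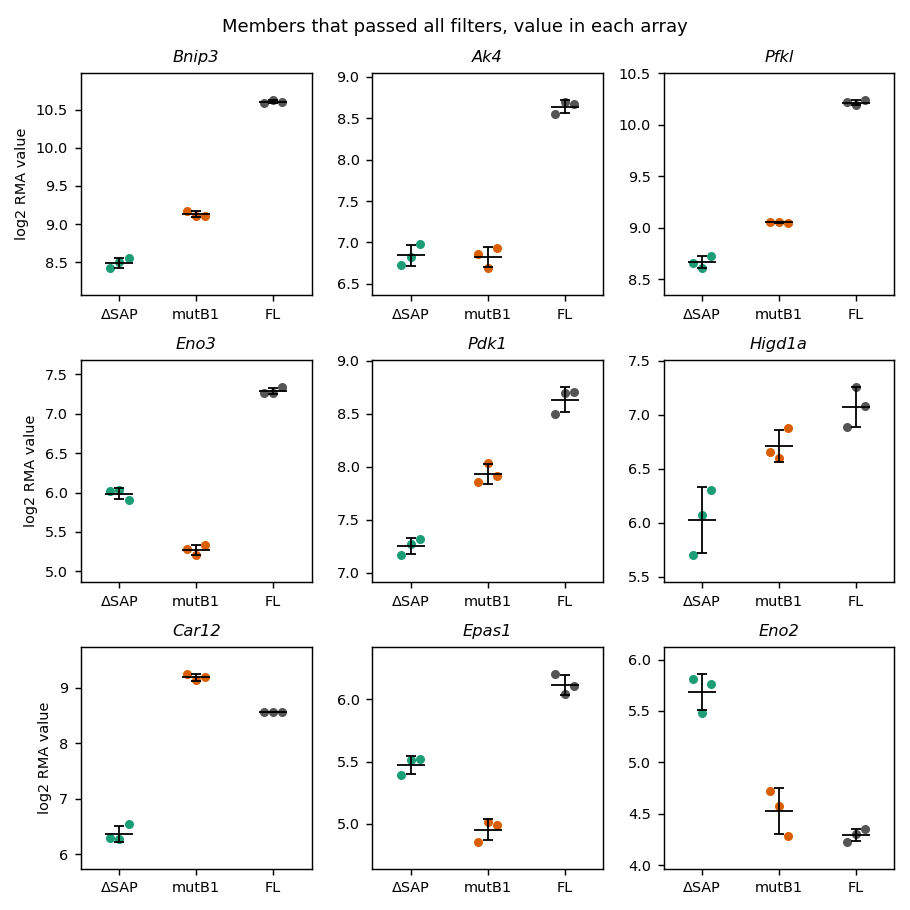
Log2 RMA value in each array (points) for the 9 genes that passed all filters in any comparison, with mean (line) and SD (bars) of 3 arrays in HC11-ΔSAP, HC11-mutB1 and HC11-FL from left to right; each panel has its own axis, which does not start at zero. Bnip3, Ak4, Pfkl and Eno3 are lower in both mutant strains than in HC11-FL, Car12 is low in HC11-ΔSAP at 6.28 to 6.54, and Eno2 is high there at 5.48 to 5.81.

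Of the later steps, from triose phosphate to pyruvate, 4 of 5 measured genes fell in each mutant strain. Pgk1, whose product makes the first ATP of the pathway, read 11.89, 11.84 and 11.88 in HC11-ΔSAP, 12.13, 12.14 and 12.17 in HC11-mutB1, and 12.44, 12.43 and 12.41 in HC11-FL. Its log2 fold change of -0.56 ± 0.04 (adjusted p = 2.8e-05) in HC11-ΔSAP stood beside -0.28 ± 0.04 (adjusted p = 0.0012) in HC11-mutB1. Pgam1, a phosphoglycerate mutase, had -0.78 and -0.54, and the pyruvate kinase gene Pkm -0.45 and -0.24, all past the test. Whether the single Pgam1 probeset reads a related copy of the gene was not tested. A second Pkm probeset gave -0.53 in HC11-ΔSAP and -0.33 in HC11-mutB1. The 11 probesets that Gapdh shares with other genes ranged from -0.88 to -0.03 in HC11-ΔSAP and from -0.62 to 0.11 in HC11-mutB1, and cannot be assigned to Gapdh.

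In HC11-ΔSAP the 2 measured enolases moved in opposite directions. Eno3, the muscle enolase, read 6.02, 6.03 and 5.90 in HC11-ΔSAP, 5.28, 5.21 and 5.33 in HC11-mutB1, and 7.27, 7.26 and 7.34 in HC11-FL. It was 2.47-fold lower in HC11-ΔSAP (log2 -1.30 ± 0.06, adjusted p = 2.4e-06) and 4.04-fold lower in HC11-mutB1 (log2 -2.01 ± 0.06, adjusted p = 2.7e-07). Eno2, the neuronal enolase, was the one gene of the list that rose in HC11-ΔSAP. It read 5.81, 5.48 and 5.76 in HC11-ΔSAP, 4.72, 4.58 and 4.29 in HC11-mutB1, and 4.23, 4.31 and 4.35 in HC11-FL. The rise in HC11-ΔSAP was 2.62-fold (log2 1.39 ± 0.12, adjusted p = 0.00011), while HC11-mutB1 overlapped HC11-FL (log2 0.23 ± 0.12, adjusted p = 0.28). HC11-FL and HC11-mutB1 lay near the expression minimum here, so the fold is that of the measured signals, background included. Eno1, the widespread enolase, was not measured here.

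The fate of pyruvate depends on Ldha, the lactate dehydrogenase subunit that favours lactate, and on Pdk1, a kinase that inhibits pyruvate dehydrogenase. Ldha read 11.96, 11.89 and 11.98 in HC11-ΔSAP, 12.05, 12.06 and 12.04 in HC11-mutB1, and 12.57, 12.53 and 12.65 in HC11-FL, and fell by 0.64 (adjusted p = 4e-05) and 0.53 (adjusted p = 0.00011) on the log2 scale. Pdk1 read 7.17, 7.27 and 7.32 in HC11-ΔSAP, 7.85, 8.04 and 7.91 in HC11-mutB1, and 8.50, 8.70 and 8.70 in HC11-FL. HC11-mutB1 lay between the other strains without overlap. Pdk1 was 2.60-fold lower in HC11-ΔSAP (log2 -1.38 ± 0.08, adjusted p = 1.1e-05) and 1.62-fold lower in HC11-mutB1 (log2 -0.70 ± 0.08, adjusted p = 0.00042).

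Taking Ldha with the steps before it, 14 glycolytic enzymes were measured. In HC11-ΔSAP 11 fell and 1 rose, with a median log2 fold change of -0.55, and in HC11-mutB1 11 fell and 0 rose, with a median of -0.47. The shares over all genes were 8.09% down and 10.8% up in HC11-ΔSAP, and 7.21% down and 10.5% up in HC11-mutB1.

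**Figure D3:**
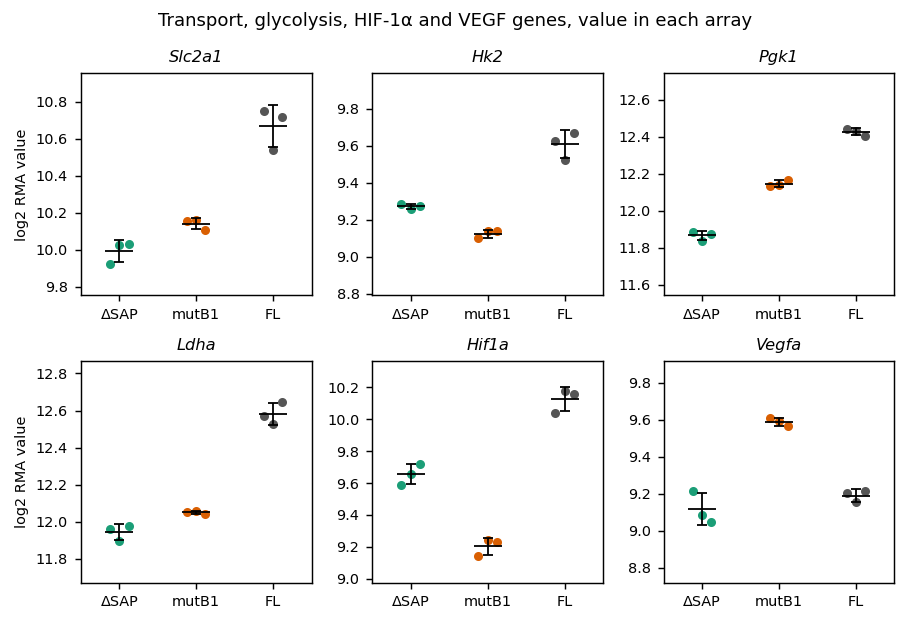
Log2 RMA value in each array (points) for Slc2a1, Hk2, Pgk1, Ldha, Hif1a and Vegfa, with mean (line) and SD (bars) of 3 arrays in HC11-ΔSAP, HC11-mutB1 and HC11-FL from left to right; each panel has its own axis, which does not start at zero. For Slc2a1, Hk2, Pgk1, Ldha and Hif1a all mutant arrays lie under all HC11-FL arrays, and Vegfa is highest in HC11-mutB1 at 9.56 to 9.61.

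The mRNAs of the HIF α subunits were lower in both mutant strains, and lower in HC11-mutB1 than in HC11-ΔSAP, as tested directly below. Hif1a read 9.59, 9.66 and 9.72 in HC11-ΔSAP, 9.14, 9.24 and 9.23 in HC11-mutB1, and 10.04, 10.17 and 10.16 in HC11-FL. Epas1, which encodes HIF-2α, read 5.39, 5.51 and 5.52 in HC11-ΔSAP, 4.85, 5.01 and 4.99 in HC11-mutB1, and 6.21, 6.04 and 6.11 in HC11-FL. For neither gene did any strains overlap. The log2 fold changes of Hif1a were -0.47 ± 0.06 (adjusted p = 0.00064) in HC11-ΔSAP and -0.92 ± 0.06 (adjusted p = 1.8e-05) in HC11-mutB1. Those of Epas1 were -0.64 ± 0.07 (adjusted p = 0.00027) and -1.17 ± 0.07 (adjusted p = 1.1e-05). Egln1, the main prolyl hydroxylase of HIF and itself a HIF target, fell by 0.37 and 0.46. Egln3 was under the expression minimum and did not pass the test (-0.10 and -0.26).

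Among targets that act at mitochondria, Bnip3 and Ak4 had the largest falls that occurred in both strains. Bnip3, a receptor for the removal of mitochondria by autophagy, read 8.42, 8.50 and 8.56 in HC11-ΔSAP, 9.17, 9.11 and 9.11 in HC11-mutB1, and 10.59, 10.63 and 10.60 in HC11-FL. It was 4.32-fold lower in HC11-ΔSAP (log2 -2.11 ± 0.05, adjusted p = 1.5e-07) and 2.78-fold lower in HC11-mutB1 (log2 -1.48 ± 0.05, adjusted p = 6.1e-07). Its second probeset gave -2.07 and -1.58. The related receptor Bnip3l did not pass in HC11-ΔSAP (0.05 ± 0.05, adjusted p = 0.58) and fell in HC11-mutB1 (-0.45 ± 0.05, adjusted p = 0.00026), where its second probeset gave -0.67 with an adjusted p of 0.02.

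Ak4, a mitochondrial adenylate kinase, read 6.73, 6.83 and 6.98 in HC11-ΔSAP, 6.86, 6.69 and 6.93 in HC11-mutB1, and 8.55, 8.70 and 8.67 in HC11-FL. The mutant strains overlapped each other and lay far under HC11-FL, 3.46-fold in HC11-ΔSAP (log2 -1.79 ± 0.09, adjusted p = 4.8e-06) and 3.51-fold in HC11-mutB1 (log2 -1.81 ± 0.09, adjusted p = 4.2e-06). Its second probeset gave smaller falls, 2.09-fold in HC11-ΔSAP (log2 -1.06) and 2.69-fold in HC11-mutB1 (log2 -1.43). On that probeset the mutant strains did not overlap each other, with HC11-ΔSAP higher by 0.37 (adjusted p = 0.018). Which probeset reads Ak4 itself was not tested. Higd1a, a small protein of the inner mitochondrial membrane, read 5.70, 6.08 and 6.30 in HC11-ΔSAP, 6.66, 6.60 and 6.88 in HC11-mutB1, and 6.88, 7.25 and 7.08 in HC11-FL. It fell 2.06-fold in HC11-ΔSAP (log2 -1.04 ± 0.16, adjusted p = 0.0022) and did not pass in HC11-mutB1 (-0.36, adjusted p = 0.19). The Higd1a call did not hold on its second probeset, with a log2 fold change of -0.51 and an adjusted p of 0.02, nor without HC11-ΔSAP replicate 1, HC11-FL replicate 2 or HC11-FL replicate 3, where the value was between -1.18 and -0.88 over all arrays left out in turn.

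Car12, a membrane-bound carbonic anhydrase that helps to control pH outside the cell, had the largest change of the list in HC11-ΔSAP. It read 6.29, 6.28 and 6.54 in HC11-ΔSAP, 9.25, 9.13 and 9.18 in HC11-mutB1, and 8.57 in each HC11-FL array. It was 4.58-fold lower in HC11-ΔSAP (log2 -2.19 ± 0.07, adjusted p = 7.5e-07) and in HC11-mutB1 1.54-fold higher (log2 0.62 ± 0.07, adjusted p = 0.00059). The 3 HC11-FL values were identical as deposited, which occurred within a strain in 1 of the 39 genes, Car12, and an SD of 0 there may make its SE too small. A value repeated in any of the 9 arrays, within or across strains, occurred in 45.2% of all probesets and in 7 of the 39 genes. Car9, a related HIF target, lay between 3.97 and 4.31 in all arrays and did not pass the test (-0.05 and -0.13).

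Neither of the secreted factors fell at the adjusted p. Vegfa, the vascular growth factor, read 9.21, 9.09 and 9.05 in HC11-ΔSAP, 9.61, 9.59 and 9.56 in HC11-mutB1, and 9.20, 9.15 and 9.22 in HC11-FL. HC11-ΔSAP overlapped HC11-FL (-0.07 ± 0.05, adjusted p = 0.44), and the HC11-mutB1 level was 1.32-fold higher (log2 0.40 ± 0.05, adjusted p = 0.001). Adm, the vasoactive peptide adrenomedullin, was under the expression minimum and did not pass (0.15 and 0.34).

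The 5 other HIF targets of the list all fell in HC11-ΔSAP, by 0.55 to 0.88 on the log2 scale, and 2 of them in HC11-mutB1. Ndrg1, a stress-responsive gene, had log2 fold changes of -0.76 in HC11-ΔSAP and -0.37 in HC11-mutB1, and Mxi1, an antagonist of Myc, -0.88 and -0.60. Ddit4, an inhibitor of mTOR signaling, had -0.59 (adjusted p = 0.00016) in HC11-ΔSAP and -0.14 (adjusted p = 0.13) in HC11-mutB1. The histone demethylase gene Kdm3a had -0.55 (adjusted p = 0.00042) and -0.11 (adjusted p = 0.34), and the ankyrin repeat gene Ankrd37 -0.63 (adjusted p = 0.0067) and -0.13 (adjusted p = 0.55). Of the glycogen genes, the synthase Gys1 fell in both strains, by 0.82 and 0.80, and the branching enzyme Gbe1 fell in HC11-mutB1 (-0.69 ± 0.07, adjusted p = 0.00022) but did not pass in HC11-ΔSAP (-0.14 ± 0.07, adjusted p = 0.23).

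Compared directly, HC11-ΔSAP and HC11-mutB1 differed in 17 of the 39 genes at the adjusted p, 9 lower and 8 higher in HC11-ΔSAP, where 7.11% of all genes were lower and 6.63% higher, or 10.6% and 9.86% of those above the minimum. The median log2 fold change was -0.10, against 0.02 for genes above the minimum, and it was -0.025 without HC11-ΔSAP replicate 2 and -0.05 without HC11-mutB1 replicate 2. With all filters Car12 was lower (7.03-fold, log2 -2.81 ± 0.07, adjusted p = 3.1e-07) and Eno2 higher (2.23-fold, log2 1.16 ± 0.12, adjusted p = 0.0004) in HC11-ΔSAP, against 2.28% and 1.61% of genes above the minimum. The arrays did not overlap for 30 of the 39 genes, against 36.7% of all genes, those under the minimum included. The lower genes were, besides Car12, Pdk1 (-0.68), Bnip3 (-0.64), Vegfa (-0.47), Kdm3a (-0.45), Ddit4 (-0.44), Ndrg1 (-0.39), Pfkl (-0.39) and Pgk1 (-0.28). Higher in HC11-ΔSAP were, besides Eno2, Eno3 (0.71), Gbe1 (0.54), Epas1 (0.52), Bnip3l (0.51), Hif1a (0.45), Pfkm (0.26) and Pfkfb4 (0.26). The mRNAs of both HIF α subunits thus stood higher in the strain without the SAP domain. Of the 19 hypoxia response genes outside glycolysis, 6 stood lower and 4 stood higher in this comparison.

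The direct differences of the other 22 genes did not pass the test. Some of them had narrow intervals around zero, such as Aldoc (0.01, 95% interval -0.10 to 0.11), Tpi1 (0.02, -0.10 to 0.13), Gys1 (-0.02, -0.15 to 0.10) and Aldoa (-0.03, -0.14 to 0.08). Ak4 had the interval from -0.18 to 0.22 on the probeset used, but from 0.18 to 0.55 on its second probeset. For Ldha it ran from -0.21 to 0.00. For Higd1a (-0.69, -1.06 to -0.31) and Ankrd37 (-0.50, -0.78 to -0.22) the intervals were wide and the adjusted p-values 0.024 and 0.026. The proliferation markers, differed in this comparison as well, with 4 of 4 lower in HC11-ΔSAP, and their part was not tested.

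**Figure D4:**
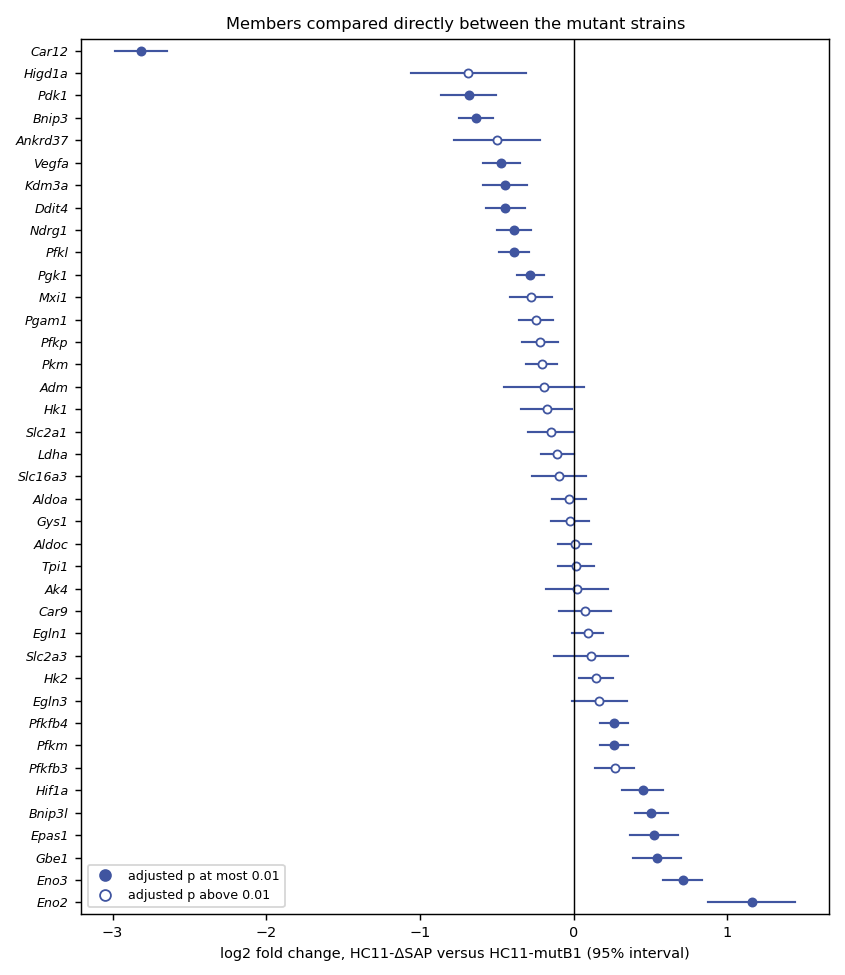
Log2 fold change of HC11-ΔSAP versus HC11-mutB1 for the 39 measured genes in order of size, with 95% intervals from limma; filled points passed an adjusted p of 0.01. Car12 stands apart at -2.81, 9 filled points lie left of zero and 8 right of it, with Eno2 at 1.16.

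Genes of related steps outside the list passed the test in both directions, in shares to be read against the 12.0% lower and 16.0% higher of all genes above the minimum in HC11-ΔSAP, and the 10.6% and 15.7% in HC11-mutB1. Of 18 further genes of pyruvate and lactate fate, 3 fell and 4 rose in HC11-ΔSAP, and 5 fell and 3 rose in HC11-mutB1. Of 13 glycogen and hexose genes 2 fell and 1 rose in HC11-ΔSAP, and 4 fell and 2 rose in HC11-mutB1. Of 11 regulators of HIF, 1 fell and 2 rose in HC11-ΔSAP, and 0 fell and 1 rose in HC11-mutB1. Of 22 further HIF targets, 6 fell and 7 rose in HC11-ΔSAP, and 8 fell and 4 rose in HC11-mutB1. Their medians lay between -0.09 and 0.04, close to that of genes above the minimum.

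Among them, Slc16a1, a lactate transporter, fell by 0.76 in HC11-ΔSAP and by 1.05 in HC11-mutB1 on the log2 scale. Ldhb, the other main lactate dehydrogenase subunit, rose by 0.63 in HC11-ΔSAP and by 1.58 in HC11-mutB1, opposite to Ldha. Fbp2, a fructose bisphosphatase of gluconeogenesis, fell in HC11-ΔSAP (-1.40 ± 0.24, adjusted p = 0.0035) and not in HC11-mutB1 (-0.18 ± 0.24, adjusted p = 0.69). Pgm1, a phosphoglucomutase, fell by 0.84 in HC11-ΔSAP and 1.05 in HC11-mutB1. The collagen prolyl hydroxylase subunit genes P4ha1 and P4ha2 fell in both strains, P4ha1 by 1.27 and P4ha2 by 0.83 in HC11-ΔSAP, and P4ha1 by 0.86 and P4ha2 by 2.00 in HC11-mutB1. Fam162a, a mitochondrial HIF target, fell by 1.57 in HC11-ΔSAP and 0.87 in HC11-mutB1, and Ero1a (listed as Ero1l), an oxidase of the endoplasmic reticulum, by 0.44 and 1.30. The 4 further HIF targets named here were those that passed all filters, so they do not show the direction of that list. Of the 22, the 7 that rose in HC11-ΔSAP and the 4 that rose in HC11-mutB1 changed by less than 2-fold and are not named.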

How the data were processed

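RNA of 9 cultures, 3 each of HC11-ΔSAP, HC11-mutB1 and HC11-FL, was hybridized to Affymetrix mouse gene arrays. The authors deposited RMA values on the log2 scale for 34760 probesets. RMA corrects background, brings arrays to one distribution and summarizes probes, and a global shift would be removed by it. R 2.10.0 and affy are the tools in the submitters' processing notes. Scans were not used here.

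Probesets with 1 symbol in the array annotation (21640) were used, and Hk1, Pkm, Bnip3, Bnip3l, Higd1a and Ak4 had 2 such probesets each. Probeset positions were not looked up, and whether a probeset detects related copies of a gene, also or instead, was not tested. The genes and lists were chosen with earlier results of these data known. All probesets were fitted in limma 3.58.1 (R 4.3.3), with 1 mean per strain and all 9 arrays sharing the spread (6 residual and 1.93 prior degrees of freedom), and p-values were adjusted by Benjamini-Hochberg over all probesets. Calls followed the study's filters: adjusted p of at most 0.01, fold of at least 2 and mean log2 expression of at least 4. Fold changes are the first strain named over the second. Arrays carry no read depth, and their number limits the precision. The fit was tested on simulated data.

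Array values are given for genes that passed all filters in any comparison, for Slc2a1, Hk2, Pgk1, Ldha, Hif1a and Vegfa, and for Mkl1. Of each further list up to 4 called genes with the largest change are named. Some genes of the further lists are not reported here. Alternatives were the prior, array scaling and weights, samples in the fit, thresholds, filters on dim probesets, the probeset of a gene, a replicate block and leaving out each array. The same alternatives on the count at any fold were added after seeing the data.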

Additional observations from a re-analysis of the deposited data

Results flagged for a closer look

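Car12 differed between the mutant strains. Against HC11-FL it fell in HC11-ΔSAP (log2 -2.19) and rose in HC11-mutB1 (log2 0.62), and the direct test of HC11-ΔSAP versus HC11-mutB1 gave a log2 fold change of -2.81 (limma adjusted p = 3.1e-07). All 3 HC11-ΔSAP arrays lay under, and all 3 HC11-mutB1 arrays above, the HC11-FL arrays. Leaving out each array in turn gave -2.90 to -2.77 for the direct difference. The part of the identical HC11-FL values and of the lower proliferation markers in HC11-ΔSAP was not tested.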

How the results depend on the processing

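With no fold minimum, 27 genes were called in HC11-ΔSAP versus HC11-FL, 26 in HC11-mutB1 versus HC11-FL and 17 in HC11-ΔSAP versus HC11-mutB1, and with a fold of at least 1.5, 18, 12 and 5, against 8, 5 and 2 at 2-fold. The lower minimum itself admits the added genes. Leaving out each array in turn gave 7 to 8, 5 to 5 and 2 to 2 calls, and 25 to 27, 23 to 25 and 14 to 17 genes at any fold. Their median log2 fold changes ranged from -0.55 to -0.54 in HC11-ΔSAP versus HC11-FL, from -0.43 (without HC11-FL replicate 1) to -0.36 in HC11-mutB1 versus HC11-FL, and from -0.12 to -0.025 in HC11-ΔSAP versus HC11-mutB1, where it was -0.025 without HC11-ΔSAP replicate 2 and -0.05 without HC11-mutB1 replicate 2. With the lowest-mean probeset of a gene that last median was -0.029. The cause of these shifts was not tested. Under the prior, scaling, weight and dim-probeset alternatives and with only the 2 strains compared in the fit, calls and counts stayed within 1.5 times. Of 45 values of the 15 genes given by array, 0 reversed a call, and Higd1a in HC11-ΔSAP versus HC11-FL lost its call in 5 of 22 alternatives (log2 -1.18 to -0.51, adjusted p up to 0.02), the fit of only those 2 strains among them.

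Replicate numbers did not pair the arrays: deviations of same-numbered arrays correlated at -0.11 to 0.26, and 3 of 9 arrays correlated best with their own number. With the replicate number as a block 8, 5 and 2 genes were called, and 27, 23 and 15 passed at any fold.

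Genes near the expression minimum, such as Slc2a3, Egln3, Adm, Car9, Slc16a3 and Eno2 (in HC11-mutB1 and HC11-FL), have signals close to background, which limits how well a change in them is measured. Levels of different genes were not compared, and mRNA gives no measure of HIF protein or of glycolytic flux. The single strain per construct limits every comparison above. Proliferation markers differed too, 4 of 4 lower in HC11-ΔSAP and 3 of 4 higher in HC11-mutB1, each against HC11-FL.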
